A study of Schmidtea mediterranea with 32 samples.

Results

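The sequences described here are 169 well-expressed transcripts of the planarian flatworm Schmidtea mediterranea that stand in the count table under accession-style identifiers, and not as contigs of a transcript assembly. They were chosen by identifier and by level. An identifier could begin with neither SmedSXL nor SmedASXL nor BK0070, and the mean had to reach 10 CPM (counts per mega-count of the library) over 31 libraries. The rule found 169 of 494 such sequences (34.2%), in a table of 177783 named sequences. Because the members were chosen for their level, the levels themselves are a description. The threshold is on the mean over both RNAi arms, so the difference between arms was not itself the criterion.

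The groups were whole animals of the sexual biotype S2F2 under RNAi against nhr-1 and whole animals under the control RNAi labelled UNC, each sampled after 4, 6, 8 or 11 feedings and sequenced as polyA RNA. Each of the 8 groups has 4 libraries, except the control at 6 feedings, which has 3. A single control library labelled 7 feedings was left out of all comparisons. The comparison asks which transcripts differ between nhr-1 RNAi and control RNAi at a given number of feedings.

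Planarians are flatworms that take up double-stranded RNA with their food, so that a gene can be silenced by repeated feeding. Nuclear hormone receptors are transcription factors, many of which are switched by small lipid-soluble ligands, and nhr-1 is known in this species for its requirement in the hermaphroditic reproductive system. Animals of the sexual biotype carry ovaries, testes, yolk glands and copulatory organs, so RNA of the whole animal mixes these organs with gut, muscle, nervous system, skin and stem cells.

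The files pair no identifier with a gene name, so the roles of the members and the silencing of nhr-1 itself were not analysed here. Members are therefore grouped by how they behaved, and those beyond the few that are named are told apart by their length. In whole animals, fewer cells of a type and less RNA per cell cannot be told apart. The labels do not say that the libraries of a group came from separate animals or cultures, so the p-values measure the spread between these libraries only.

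The libraries held 11179167 to 19712337 counts over all sequences, and 169 of 169 members passed the filter on low counts. The lowest count of any member in any library was 4. In 3 libraries the contig SmedSXL_088910 took 36.9% to 47.5% of the SmedSXL counts, against at most 25.9% in the other 28. These are replicate s2 of nhr-1 RNAi at 4 feedings and replicates s2 and s3 of the control at 11 feedings, and results that rest on them are given with and without them.

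Members spanned a wide range of level and length. They were 216 to 10479 bases long, with a median of 1428, against 1633 for the 6776 SmedSXL contigs of at least 10 CPM. The median member had a mean of 29.3 CPM and the median contig 20.6 CPM. Mean levels lay between 10 and 20 CPM for 65 members, between 20 and 50 CPM for 62, between 50 and 200 CPM for 23 and above that for 19. At the threshold, JX010474.1 with 10.1 CPM and DQ406859.1 with 10.1 CPM were just inside, and GU295186.1 with 9.96 CPM and EU130787.1 with 9.83 CPM just outside. Identifiers that begin with JX made up 71 of the members.

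Many members had a contig in the table that followed them closely. Over the 31 libraries, 126 of 169 members had a SmedSXL contig whose log2 level correlated with theirs at r over 0.99, and for 86 of these the mean CPM lay within 5%. At r over 0.95 there was such a contig for 152 members and none for 17. These correlations are across libraries of 1 table and describe likeness of level only. Among the 17 without a like contig, 402 to 3040 bases long, 0 were called at 6 feedings, 1 at 8 feedings and 2 at 11 feedings. Over all sequences tested the shares called were 10.1%, 12.3% and 28.9%, and 17 sequences are too few to compare with them. At r over 0.99, 9 members followed another deposited sequence, which for the member of 1943 bases was EU130787.1, itself outside the set. Pairs within the set include FJ588617.1 with JX967264.1 and JQ425147.1 with JX010506.1 (both named after their values were seen), so the members may not all stand for separate transcripts.

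More members were called at each later number of feedings with all 31 libraries, but without the 3 dominated libraries the counts were 21 at 6 feedings (12.4%), 26 at 8 (15.4%) and 19 at 11 (11.2%), against 14%, 15.6% and 12.4% of all sequences tested there. A call is an adjusted p under 0.05 in edgeR's quasi-likelihood test, with Benjamini-Hochberg adjustment over all 45762 sequences tested. At 4 feedings 0 of 169 members were called, against 0.302% of all sequences tested (0.299% lower and 0.00219% higher) and 0.457% of SmedSXL contigs of at least 10 CPM. At that time 5 members had an unadjusted p under 0.05, and DESeq2 called 0.

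At 6 feedings 13 members (7.69%) were called, 10 lower and 3 higher under nhr-1 RNAi. The share called was 10.1% over all sequences and 12.6% over SmedSXL contigs of at least 10 CPM. With same-named replicates paired, 9 members were called at 6 feedings, 7 lower and 2 higher, of which 7 were among the 13, against 8.87% of all sequences with the replicate block. At that time nhr-1 RNAi replicate s3 has no control of its name. At 8 feedings 19 members (11.2%) were called, 13 lower and 6 higher, against 12.3% over all sequences and 14.1% over the contigs. At 11 feedings 56 members (33.1%) were called, 29 lower and 27 higher, against 28.9% and 34.7%. Chosen by the mean of TMM-scaled CPM in controls alone, 164 sequences (156 of them members) gave 15 calls at 6 feedings, 21 at 8 and 63 at 11. All 3 member shares were near the shares of the background, and no difference between members and contigs was tested.

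By direction, 5.92% of members were lower at 6 feedings, against 11.7% of the contigs and 9.54% of all sequences, and 1.78% were higher, against 0.915% and 0.59%. At 8 feedings 7.69% were lower, against 12.9% of contigs and 11.3% of all sequences, and 3.55% higher, against 1.2% and 0.964%. At 11 feedings 17.2% were lower, against 22.9% of contigs and 21.8% of all sequences, and 15.98% higher, against 11.8% and 7.1%. The split by direction moved with the scaling. With total counts alone 10 members were lower and 1 higher at 6 feedings, and 12 lower and 2 higher at 8 feedings. With the size factors of DESeq2 12 were lower and 9 higher at 8 feedings. With TMM, at each of these times a smaller share of members than of contigs was lower and a larger share higher. Weighting the contigs to the abundance classes of the members left their shares at 12.1% called at 6 feedings, 13.6% at 8 and 35.2% at 11.

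**Figure D1:**
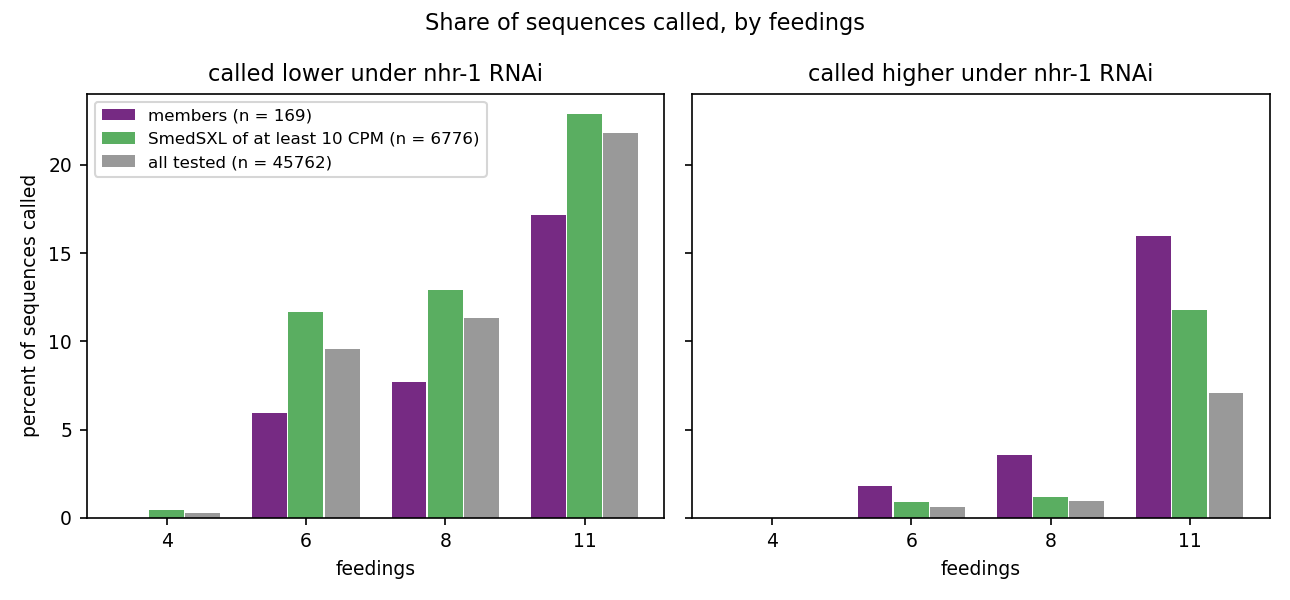
Percent of sequences called lower (left) and higher (right) under nhr-1 RNAi at 4, 6, 8 and 11 feedings, for the 169 members, 6776 SmedSXL contigs of at least 10 CPM and all 45762 sequences tested. At 11 feedings 17.2% of members were lower and 15.98% higher, against 22.9% and 11.8% of the contigs.

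The median log2 fold change of the members (nhr-1 RNAi minus control) was -0.01 at 4 feedings, 0.30 at 6, 0.21 at 8 and 0.17 at 11. Over all sequences tested the medians were 0.00 at 4 feedings, 0.18 at 6, 0.15 at 8 and 0.14 at 11. Scaling by total counts alone, in place of TMM, put the median of all sequences at 0.57 at 11 feedings and at -0.05 at 6 feedings. Without the 3 dominated libraries it was 0.01 at 6, 8 and 11 feedings. Direction at 11 feedings is therefore read against these shifts.

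**Figure D2:**
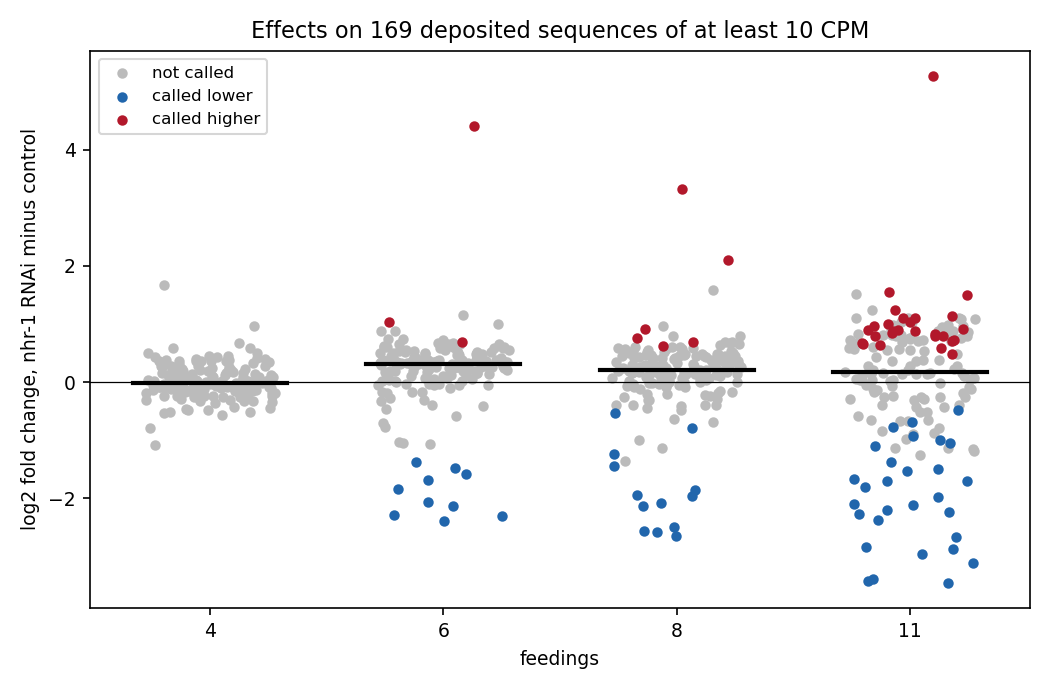
Log2 fold change (nhr-1 RNAi minus control) of each of the 169 members at 4, 6, 8 and 11 feedings; points are members, black lines medians, and colours mark calls. No member was called at 4 feedings, and at 11 feedings 29 were called lower and 27 higher.

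Across all times, 110 members were never called and 0 were called in both directions. The mean of the 4 effects was called for 51 members, 22 lower and 29 higher, against 29.7% of all sequences tested (18.2% lower and 11.5% higher) and 31.7% of the contigs (17.4% lower and 14.3% higher). With total counts alone 17 were lower and 10 higher, and with the replicate block 20 were lower and 51 higher. The shares of all sequences called were then 18.0% with total counts and 36.0% with the block. Without the 3 dominated libraries 46 members were called, of which 41 were among the 51, against 12209 of 47468 of all sequences. Calls recurred over time. Of 10 members lower at 6 feedings, 9 were also lower at 8 and 11 feedings, and 3 of 3 members higher at 6 feedings were also higher at 8 and 11. Among all sequences tested 89.1% of those lower at 6 feedings were also lower at 8 and 11, and 28.1% of those higher were also higher. Among the contigs the shares were 95.1% and 38.7%. Different libraries of both arms stand behind each time point, but the fit was shared.

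The 9 members lower at 6, 8 and 11 feedings formed a group of their own by call. At 4 feedings nhr-1 RNAi means were at 69.7% to 89.6% of the control means, and the libraries of the 2 arms overlapped for 9 of 9. At 6 feedings the nhr-1 RNAi means were at 19.2% to 35.7% of control, with a median of 23.8%. At 8 feedings they were at 15.9% to 36.7%, with a median of 22.7%.

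At 11 feedings the nhr-1 RNAi means of the 9 were at 9.08% to 48.4% of control, with a median of 25.3%. Since these members were chosen by call, the separation of the arms is a description: every nhr-1 RNAi library lay below every control for 9 of 9 members at 6 and at 8 feedings and for 8 of 9 at 11 feedings. Over all sequences tested this held for 12.9% at 6 feedings, 15.2% at 8 and 12.5% at 11. The exception was a member of 851 bases, with the smallest fold change of the 9. Without the 3 libraries named above, 9 of 9 were still called lower at each of these times, with a median log2 fold change of -2.25 at 6 feedings, -2.31 at 8 and -2.34 at 11. With the replicate block 7 of the 9 were called at 6 feedings, 9 at 8 and 7 at 11. With total counts alone 7 were called at 6 feedings, 8 at 8 and 4 at 11, and 9 of 9 stayed below 0 at each time under both settings.

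Lengths in this group ran from 579 to 1877 bases, with a median of 1531, and mean levels from 23.9 to 356.5 CPM. They comprise 3 of the 3 members whose identifiers begin with BK and 4 of the 10 that begin with HM. Over the 36 pairs of these 9, Pearson's r of log2 levels in the 15 control libraries had a median of 0.86 and a lowest value of -0.31. These values share libraries and scaling factors and are a description.

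**Figure D3:**
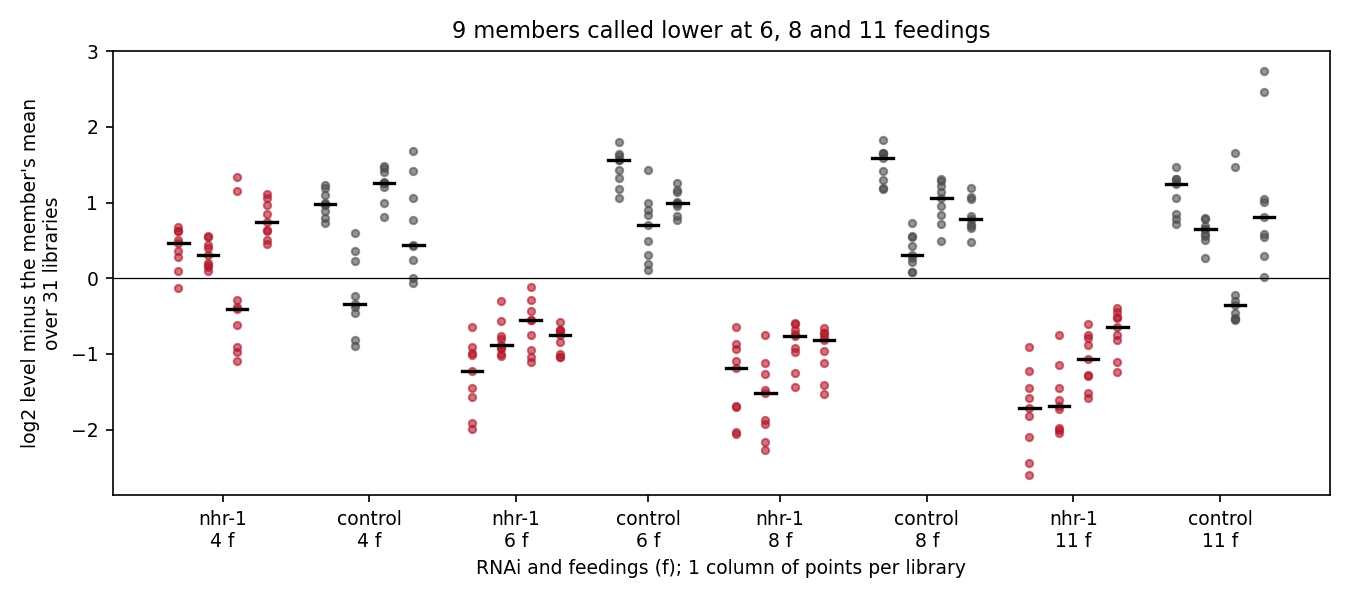
Log2 level of the 9 members called lower at 6, 8 and 11 feedings, each minus its own mean over 31 libraries; each column of points is 1 library and the black line its median. At 4 feedings the arms overlap for all 9, and at 6 and 8 feedings every nhr-1 RNAi value of a member lies below its control values.

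JN621815.1, 579 bases long, had the most negative mean effect among these 9. Levels below are CPM after TMM scaling, in the order of the replicate names. At 4 feedings it had 15.7, 25.7, 44.2 and 36.4 CPM in nhr-1 RNAi libraries, against 37.4, 26.3, 48.8 and 56.6 CPM in controls. The arms overlapped, and the fold change was not called (log2 -0.48, standard error 0.38, adjusted p = 1 by edgeR).

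At 6 feedings JN621815.1 had 3.96, 8.81, 7.74 and 10.5 CPM in nhr-1 RNAi libraries, against 36.4, 47.1 and 30.8 CPM in controls. At 8 feedings it had 3.85, 3.45, 6.07 and 5.66 CPM in nhr-1 RNAi libraries, against 39.8, 25.6, 24.5 and 24.3 CPM in controls. Every nhr-1 RNAi library lay below every control at both times. The difference was -2.30 log2 units at 6 feedings (standard error 0.42, adjusted p = 0.000357 by edgeR) and -2.58 at 8 feedings (standard error 0.41, adjusted p = 3.54e-05 by edgeR).

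At 11 feedings JN621815.1 had 2.42, 3.81, 5.71 and 7.04 CPM in nhr-1 RNAi libraries, against 28.6, 28, 55.3 and 97.1 CPM in controls. The arms were separate, and both controls above 50 CPM after TMM scaling were libraries dominated by SmedSXL_088910. The controls held 569, 430, 266 and 540 counts, in libraries of 13216060 to 15807582 counts, so that height came with the TMM scaling. The difference was -3.45 log2 units (standard error 0.42, adjusted p = 7.28e-07 by edgeR). It was -2.67 without the dominated libraries and -2.57 with total counts alone. The effect differed between feedings (edgeR F test, adjusted p = 0.00715). In all, 33 SmedSXL contigs followed this member at r over 0.99.

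HM100652.1, 835 bases long, had the next most negative mean effect, and its mean level per kilobase was 253.5 CPM, against 41.25 CPM for JN621815.1. At 4 feedings it had 163, 202, 341 and 276 CPM in nhr-1 RNAi libraries, against 362, 179, 370 and 411 CPM in controls, and the arms overlapped (log2 fold change -0.43, adjusted p = 1 by edgeR). At 6 feedings it had 40.1, 76.2, 74.4 and 102 CPM in nhr-1 RNAi libraries, against 383, 273 and 303 CPM in controls. At this time the highest nhr-1 RNAi library was below the lowest control, at a log2 difference of -2.13 (standard error 0.43, adjusted p = 0.00101 by edgeR).

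At 8 feedings HM100652.1 had 36.5, 31.4, 63.7 and 57.3 CPM in nhr-1 RNAi libraries, against 377, 190, 272 and 272 CPM in controls. At 11 feedings it had 27.7, 37.7, 50.6 and 71.1 CPM in nhr-1 RNAi libraries, against 275, 225, 424 and 1025 CPM in controls. The arms did not overlap at either time. The difference was -2.56 log2 units at 8 feedings (standard error 0.42, adjusted p = 5.65e-05 by edgeR) and -3.38 at 11 feedings (standard error 0.44, adjusted p = 1.3e-06 by edgeR), or -2.53 at 11 feedings without the dominated libraries. The effect differed between feedings (edgeR F test, adjusted p = 0.00969), and over 31 libraries the level of HM100652.1 followed that of JN621815.1 with r = 0.988.

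GU591869.1, 396 bases long, had the most positive mean effect and was the most variable member, with an SD of log2 level of 2.31 over 31 libraries against a median of 0.563 over members. At 4 feedings it had 86.4, 115, 63.7 and 15.9 CPM in nhr-1 RNAi libraries, against 182, 62.7, 194 and 46.5 CPM in controls. The arms overlapped, and no change was called (log2 -0.79, standard error 0.85, adjusted p = 1 by edgeR). At 6 feedings it had 53.7, 1128, 82.7 and 331 CPM in nhr-1 RNAi libraries, against 18.1, 8.22 and 29.9 CPM in controls.

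The nhr-1 RNAi libraries at 6 feedings were thus spread over a wide range, but all lay above the controls (log2 fold change 4.41, standard error 1.10, adjusted p = 0.00684 by edgeR). With replicates of the same name paired, that call was lost (log2 2.92, adjusted p = 0.0895 by edgeR with the replicate block). At 8 feedings GU591869.1 had 204, 574, 846 and 1100 CPM in nhr-1 RNAi libraries, against 6.81, 75.7, 26.3 and 163 CPM in controls. The arms did not overlap there (log2 3.33, standard error 0.92, adjusted p = 0.0131 by edgeR). Leaving out control s2 of that time moved the adjusted p of edgeR to 0.0539.

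At 11 feedings GU591869.1 had 355, 1751, 826 and 1140 CPM in nhr-1 RNAi libraries, against 10.8, 61.5, 18.1 and 14.9 CPM in controls. The lowest nhr-1 RNAi library was well above the highest control (log2 5.27, standard error 1.01, adjusted p = 0.000262 by edgeR), and without the dominated libraries the log2 fold change was 4.79. The effect differed between feedings (edgeR F test, adjusted p = 0.0177).

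JQ425156.1, 1428 bases long, changed less but varied less between replicates. At 4 feedings it had 15.5, 15.3, 7.56 and 12.7 CPM in nhr-1 RNAi libraries, against 14.6, 13.8, 11.2 and 11.8 CPM in controls. The arms overlapped, at a log2 difference of 0.00 (standard error 0.23, adjusted p = 1 by edgeR). At 6 feedings it had 17.2, 16.1, 21.1 and 23.6 CPM in nhr-1 RNAi libraries, against 10.3, 8.61 and 9.71 CPM in controls.

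The arms of JQ425156.1 were separate at 6 feedings (log2 1.03, standard error 0.26, adjusted p = 0.00771 by edgeR), although the call was lost with the replicate block (log2 0.92, adjusted p = 0.0778 by edgeR) and with scaling by total counts alone (log2 0.76, adjusted p = 0.716 by edgeR). Without the filter on low counts it was lost too (log2 0.98, adjusted p = 0.183 by edgeR). At 8 feedings it had 20.6, 19.4, 18.2 and 20.3 CPM in nhr-1 RNAi libraries, against 12.3, 11.0, 10.7 and 7.80 CPM in controls. At 11 feedings it had 17, 26.3, 23.6 and 20.6 CPM in nhr-1 RNAi libraries, against 11.6, 7.55, 5.20 and 4.85 CPM in controls.

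Both late comparisons of JQ425156.1 were called without overlap. The difference was 0.91 log2 units at 8 feedings (standard error 0.24, adjusted p = 0.00778 by edgeR) and 1.55 at 11 feedings (standard error 0.24, adjusted p = 1.98e-05 by edgeR). The lowest controls at 11 feedings, s2 and s3, are dominated libraries and held 25 and 27 counts of it. Without the dominated libraries the difference at 11 feedings was 1.08 (adjusted p = 0.00207 by edgeR). Scaling by total counts alone lost the call at 8 feedings (log2 0.83, adjusted p = 0.462 by edgeR), as did leaving out the filter (log2 0.81, adjusted p = 0.259 by edgeR). The effect differed between feedings (edgeR F test, adjusted p = 0.03).

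**Figure D4:**
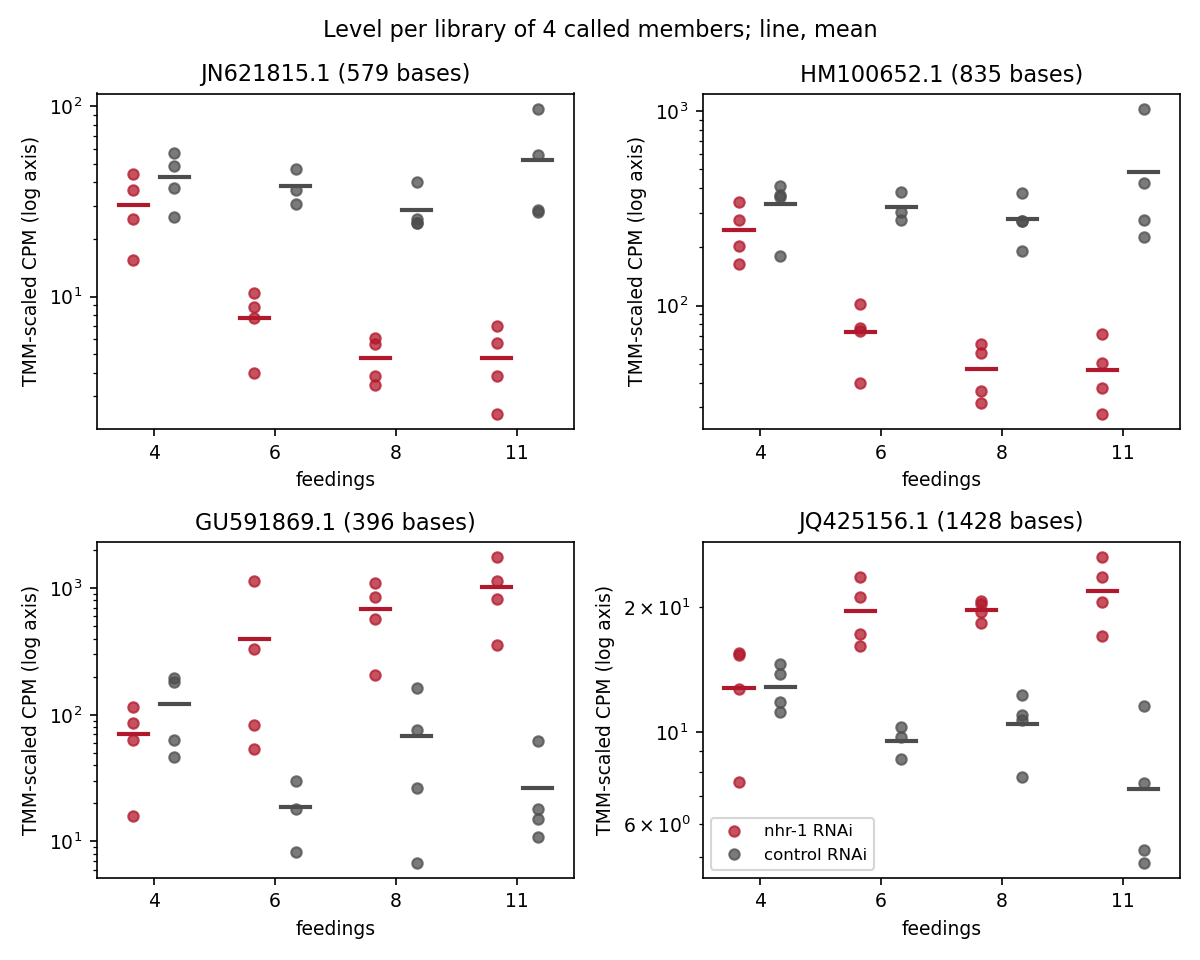
TMM-scaled CPM (log axis) of JN621815.1, HM100652.1, GU591869.1 and JQ425156.1 in each library at 4, 6, 8 and 11 feedings, nhr-1 RNAi in red and control in grey; lines are means. The arms overlap at 4 feedings and are separate at 6, 8 and 11 feedings in all 4 panels.

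The other members called at 6 or 8 feedings moved less evenly over time. A member of 874 bases was lower at 8 feedings (log2 -2.08) and 11 feedings (log2 -2.11), as was one of 925 bases (log2 -1.24 at 8 feedings and -2.37 at 11) and one of 883 bases (log2 -0.78 at both). A member of 1758 bases was called lower at 6 feedings alone (log2 -1.38) and one of 920 bases at 8 feedings alone (log2 -0.54). On the higher side, members of 1776 and 2103 bases were called at 8 and 11 feedings, one of 1836 bases at 6, 8 and 11, and one of 639 bases at 8 feedings alone (log2 2.10).

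A difference of the nhr-1 effect between feedings was called for 6 members (3.55%), against 4.12% of all sequences tested and 6.15% of the contigs. They are JN621815.1, HM100652.1, GU591869.1, JQ425156.1 and members of 1504 and 604 bases. The member of 1504 bases had log2 fold changes of -0.33 at 4 feedings, -2.38 at 6, -2.65 at 8 and -2.19 at 11 (edgeR F test, adjusted p = 0.03). For the member of 604 bases they were -0.20, -1.03, -1.35 and -3.43 (edgeR F test, adjusted p = 0.0422). With the replicate block the count was 3, against 3.96% of all sequences, and the call of JQ425156.1 was lost (adjusted p = 0.112 by edgeR). Without the 3 dominated libraries the count was again 6, of which 3 were among the 6 listed, against 3.7% of all sequences. The calls of GU591869.1 (adjusted p = 0.103 by edgeR) and JQ425156.1 (adjusted p = 0.407 by edgeR) were then lost. Leaving out 1 library gave counts from 2, without nhr-1 RNAi replicate s3 at 4 feedings (2.56% of all sequences), to 18, without control replicate 1 at 11 feedings (9.56%).

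In the control arm alone, edgeR's F test called 0 members as changing over feedings, and 0% of all sequences tested. At an unadjusted p under 0.05 there were 39 members (23.1%), against 18.2% of all sequences and 21.8% of the contigs. DESeq2 called 20 members, against 8.57% of all sequences. Without control replicate 1 at 11 feedings edgeR called 33, against 15.6%, and without control replicate s1 at 11 feedings 18, against 6.64%. Without nhr-1 RNAi replicate s2 at 4 feedings, which is in no control group, edgeR called 11, against 2.03%.

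Most calls at 11 feedings were not shared with earlier times. Of the 29 lower members, 17 were called at neither 6 nor 8 feedings, and of the 27 higher members 22. The 17 were short, with a median length of 626 bases, and had a median log2 fold change of -1.80 at 11 feedings, against 0.02 at 6 feedings and -0.18 at 8. The 22 were longer, with a median of 1794 bases and a median log2 fold change of 0.86 at 11 feedings, against 0.35 at 6 feedings and 0.46 at 8.

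The calls at 11 feedings use the 2 dominated controls, so the levels there are a description that follows in part from the choice by call. In control replicate s2 at 11 feedings the 17 lower members stood a median of 2.56 log2 units above their mean in controls 1 and s1, and in replicate s3 3.08 units above, with 17 of 17 higher in each. The dominated nhr-1 RNAi library at 4 feedings is in neither group compared at 11 feedings, but it enters the shared fit. Leaving it out gave 67 calls at 11 feedings, with 14702 of 45724 of all sequences called. In it the 17 stood a median of 1.64 units above the other 3 libraries of its group, with 17 of 17 higher. No other sequences were set beside these values. TMM factors were 0.3647 and 0.3526 in controls s2 and s3 at 11 feedings, against 1.355 and 1.034 in controls 1 and s1. In the dominated nhr-1 RNAi library the factor was 0.5334, against 1.077 to 1.296 in the others of its group. A low factor raises the scaled level of every sequence in its library, so the heights above include that shift. The 22 higher members stood a median of 0.94 units below in control s2 and 0.97 units below in control s3.

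Without the 3 dominated libraries, 1 of the 17 and 2 of the 22 were still called at 11 feedings. Their medians were then -0.21 and 0.37 on the log2 scale. In all, 19 members were called at 11 feedings without those libraries, 12 lower and 7 higher, and all 19 were among the 56. They make up 11.2% of members, against 12.4% of all sequences. The count was 28 without control replicate s3 alone, against 15.6% of all sequences, and 32 without control replicate s2 alone, against 18.4%. It was 99 (58.6%) without control replicate 1, against 45.6%.

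The replicate block and the scaling also changed the balance at 11 feedings. With same-named replicates paired, 19 members were called lower and 45 higher, 64 in all (37.9%) with the replicate block, of which 43 were among the 56, against 27.7% of all sequences. Only the names 1, s2 and s3 stand in both arms at 11 feedings. That estimate therefore gets nothing from control s1 or nhr-1 RNAi s4, and its controls s2 and s3 are dominated libraries. With scaling by total counts alone 12 were lower and 12 higher (14.2% in all), of which 19 were among the 56, against 11.9% of all sequences.

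Length went with the effect at 11 feedings. Over the 169 members, Spearman's rho between length and log2 fold change was 0.59 at 11 feedings, 0.27 at 8, 0.17 at 6 and 0.27 at 4. Over the 6776 contigs it was 0.62 at 11 feedings. Without the 3 dominated libraries the rho of the members was 0.13 at 11 feedings and 0.70 at 4 feedings. Members share libraries, so these values describe the table and carry no p.

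By length class, 8 of 20 members of up to 600 bases were lower at 11 feedings and 2 higher, and the class median was -0.73 on the log2 scale. Of the 686 contigs of that length 60.2% were lower and 3.94% higher. Among 40 members of more than 2000 bases 0 were lower and 9 higher, and the median was 0.88. Of the 2472 contigs of that length 7.52% were lower and 16.9% higher. Without the dominated libraries the medians of the members were 0.25 in the short class and 0.23 in the long class. The part of length or library composition in the late calls was not tested further.

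**Figure D5:**
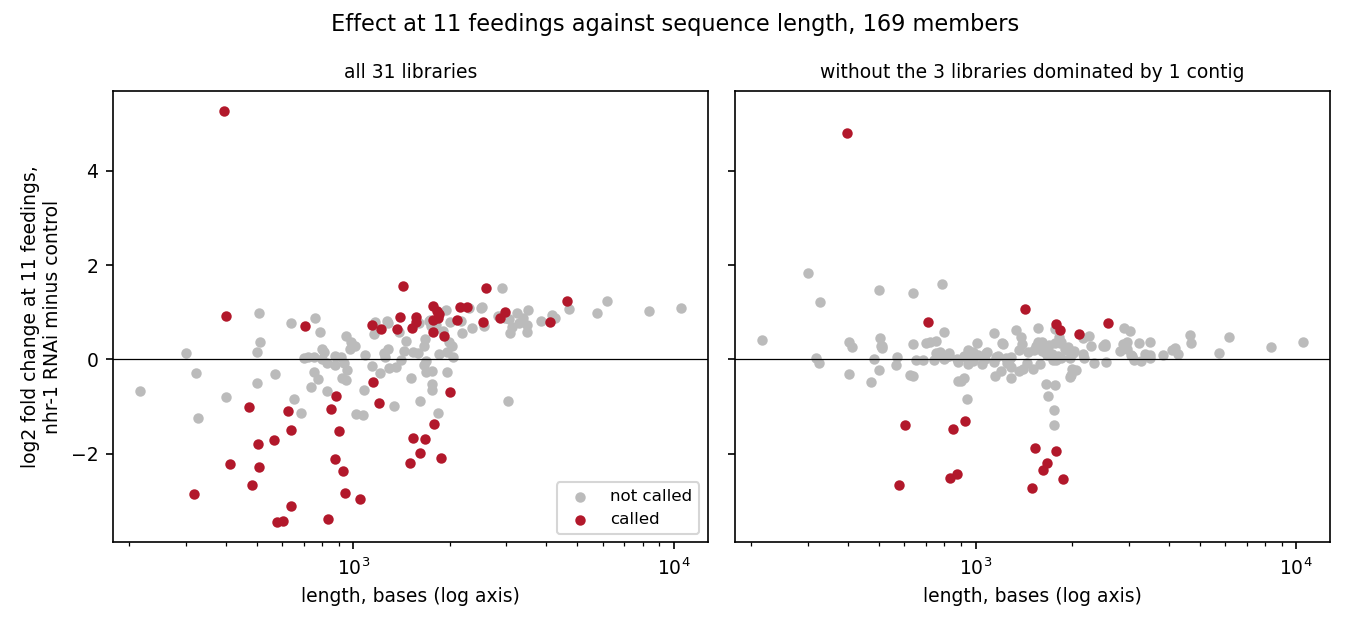
Log2 fold change at 11 feedings (nhr-1 RNAi minus control) against length in bases (log axis) for the 169 members, with all 31 libraries (left) and without the 3 dominated libraries (right); red points are called. Spearman's rho is 0.59 on the left and 0.13 on the right.

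Ranks in this and the next paragraphs are by CPM, which counts more for longer sequences, unless given per kilobase. Of the 5 members with the highest mean CPM, 4 were called at 11 feedings and 1 at no time. The member with the highest CPM, also per kilobase, is 413 bases long. It averaged 60290 CPM and took 2.65% to 15.9% of all counts, depending on the library. Its nhr-1 RNAi levels at 11 feedings were 35150, 74190, 44640 and 46020 CPM, against 22220, 58610, 406000 and 450700 CPM in controls. It was called lower there (log2 -2.23, standard error 0.73, adjusted p = 0.0234 by edgeR) although the arms overlapped, and both high controls are dominated libraries. The 3 dominated libraries are also those where its own share of counts was highest (12.2%, 14.8% and 15.9%, against at most 9.16% in the others compared). Its share and that of SmedSXL_088910 were both lowest in control 1 at 8 feedings and highest in control s3 at 11. Leaving these libraries out removes its own highest values. The result without them (log2 0.26, adjusted p = 0.941 by edgeR, not called) therefore cannot decide on the call.

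Number 3 in CPM and number 2 per kilobase, 505 bases long, had 998, 1677, 1194 and 998 CPM in nhr-1 RNAi libraries at 11 feedings, against 654, 1048, 8207 and 7095 CPM in controls. Its arms overlapped too (log2 -1.80, standard error 0.60, adjusted p = 0.0254 by edgeR), and without the dominated libraries it was not called (log2 0.44, adjusted p = 0.755 by edgeR). Those libraries held its highest levels as well, so the same limit applies. Without the member of 413 bases, the others together took 0.892% to 1.75% of all counts. The members at rank 4 and 5 by CPM (10 and 12 per kilobase), of 1566 and 1569 bases, were called higher at 11 feedings, with log2 fold changes of 0.79 (adjusted p = 0.0483 by edgeR) and 0.90 (adjusted p = 0.0152 by edgeR). Without the dominated libraries neither was called, at log2 0.37 (adjusted p = 0.711 by edgeR) and 0.65 (adjusted p = 0.313 by edgeR).

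JX010510.1, 1213 bases long and second in CPM with a mean of 2955 CPM, was called at no time. It had 1988, 3099, 6912 and 3112 CPM in nhr-1 RNAi libraries at 4 feedings, against 2172, 5045, 2745 and 4021 CPM in controls (log2 0.11, standard error 0.38, adjusted p = 1 by edgeR). At 11 feedings it had 2619, 3379, 3114 and 2919 CPM in nhr-1 RNAi libraries, against 1630, 2864, 5439 and 4875 CPM in controls (log2 -0.30, standard error 0.38, adjusted p = 0.538 by edgeR). The arms overlapped at both times, and also at 6 feedings (log2 0.50) and 8 feedings (log2 0.36). With scaling by total counts alone its log2 fold change at 11 feedings was 0.55 (adjusted p = 0.0485 by edgeR).

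EU082822.1, 216 bases long and the shortest member, was also called at no time. At 8 feedings it had 363, 347, 325 and 363 CPM in nhr-1 RNAi libraries, against 262, 349, 194 and 243 CPM in controls (log2 0.41, standard error 0.39, adjusted p = 0.653 by edgeR). At 11 feedings it had 406, 314, 343 and 331 CPM in nhr-1 RNAi libraries, against 261, 229, 715 and 1018 CPM in controls (log2 -0.67, standard error 0.39, adjusted p = 0.181 by edgeR). The high TMM-scaled values of the control arm are again the dominated libraries, without which the log2 fold change was 0.41. These controls held 5190, 3513, 3438 and 5662 counts, in libraries of 13216060 to 15807582 counts. That height therefore came with the TMM scaling. With total counts alone the log2 fold change was 0.33 (adjusted p = 0.227 by edgeR). Per kilobase of length its mean of 1849 CPM stood at rank 4, and that of JX010510.1, 2436 CPM, at rank 3.

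Members also differed in how steady they were. Over the 31 libraries the SD of the log2 level ran from 0.178 to 2.31, was under 0.25 for 18 members and over 1 for 21. JX010603.1, 810 bases long, was the steadiest (named after its values were seen). It had 36.1 to 54.2 CPM in nhr-1 RNAi libraries with a median of 42.8, against 31.3 to 43.2 CPM in controls with a median of 36.7. Its smallest edgeR adjusted p at any time was 0.342.

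Some members varied with the replicate name. Each group has 1 library named 1, and the labels do not say how it differs from those named with an s. That library was the highest of its group in all 8 groups for 2 members (1.18%) and the lowest in all 8 for 6 members (3.55%), against 2.76% and 3.07% of the contigs. AF112359.2, 4176 bases long and named after its values were seen, was highest in it throughout, by a mean difference of 1.61 log2 units, and JX010510.1 was lowest in it throughout. Neither was called in any comparison of the arms.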

How the data were processed

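Whole-animal polyA RNA of sexual Schmidtea mediterranea was sequenced in 32 libraries. The authors deposited whole-number read counts per reference sequence, with an identifier and a length, per the file headers, and these counts were used as deposited. Bowtie2 is the aligner named in the submitters' processing notes; for its version, the counting program, the treatment of strand and the origin of the reference sequences the entry is: not given in the sources used here. Reads were counted on more than 1 sequence, so near-identical entries cannot be told apart and column totals exceed the number of reads.

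Groups and replicate names were read from the titles, as descriptions repeat a name among the controls at 11 feedings. The whole table was fitted once with edgeR 4.0.16 in R 4.3.3: TMM scaling, filterByExpr at a minimum count of 10 and a minimum total of 15, 1 mean for each of 8 groups, and the quasi-likelihood test on 45762 sequences in 31 libraries. Members' p-values were adjusted over all of these. The 4 contrasts, their mean, the F test of their differences and an F test over feedings in controls were computed. The standard error of a log2 fold change was computed as its size over the root of its F statistic. Levels per library are TMM-scaled CPM, log2 levels used an offset of 0.5 CPM, and CPM is not corrected for length, so levels of different sequences are also given per kilobase. The same code was tested on simulated counts with known changes.

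The sequences and lists were chosen with earlier results of these data known. Named members are 2 that fell and 2 that rose, by the size of the mean effect among those called that way most often over the 4 times, uncalled members among the 5 highest in CPM or in CPM per kilobase, and the 2 on each side of the threshold. Alternatives were DESeq2 1.42.0, its size factors, total counts, no filter, other membership rules, a term or subset for replicate names, a replicate block, 2-group fits, and leaving out libraries. Same-named libraries of both arms deviated together at 6 feedings (r = 0.595, 0.564 and 0.286) and at 11 feedings (r = 0.463, 0.354 and 0.168), where the pairing was taken to hold from this check of the data and, at 11 feedings, for titles only. It was not taken to hold at 4 feedings (r = 0.567, -0.0571, -0.663 and -0.138) or at 8 feedings (r = 0.223, 0.311, 0.0015 and 0.0374). These values overlap between times, and none is given for libraries of different names, so they cannot by themselves decide on the pairing. The replicate block was fitted at all 4 times. Its counts for the mean effect and for the difference between feedings therefore include times where pairing was not taken to hold. No sequence or gene name was used.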

Additional observations from a re-analysis of the deposited data

Results flagged for a closer look

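Chance places about 1 in 20 groups of 4 libraries beyond the limit used for a stray library, and 56 groups were examined. In EU082822.1, replicate s2 of nhr-1 RNAi at 4 feedings stood far from the other 3 libraries of its group at 1118 CPM; it is 1 of the 3 libraries dominated by SmedSXL_088910. In GU591869.1, control replicate s1 at 11 feedings stood apart at 61.5 CPM, and in JN621815.1 control replicate 1 at 8 feedings at 39.8 CPM.

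The nhr-1 effect differed between feedings for 6 members by edgeR's F test. The adjusted p was 0.00715 for JN621815.1, 0.00969 for HM100652.1, 0.0177 for GU591869.1 and 0.03 for JQ425156.1. Without the 3 dominated libraries it was 0.103 for GU591869.1 and 0.407 for JQ425156.1. In the control library labelled 7 feedings, which entered no comparison, JX010510.1 had 4255 CPM of total counts, above the 1715 to 3723 CPM of the 15 controls compared. In that library 21 members were above all 15 controls and 3 below all of them.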

How the results depend on the processing

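In all, 15 settings plus 31 that leave out 1 library were tried. Of the 9 members lower at 6, 8 and 11 feedings, 6 to 9 were called at 6 feedings, 8 to 9 at 8 and 4 to 9 at 11 under the settings run for each (7, 9 and 7 with the replicate block, 6 at 6 feedings with names with s alone, 7 at 11 feedings with only the 2 groups). The count at 4 feedings was 0 under the 45 settings run for it. Counts at 6 feedings moved by more than 1.5 times without the dominated libraries (21) and with libraries named with s alone (8). Of all sequences, 6632 of 47468 and 2618 of 45578 were called there. At 8 feedings the count moved when only the 2 groups compared were fitted (37, with 8027 of 38970 of all sequences). At 11 feedings the count was 24 with total counts (5458 of 45762 of all sequences) and 19 without the dominated libraries (5868 of 47468). It was 14 with only the 2 groups (4155 of 37168) and 31 unfiltered (10325 of 172262). The count was 86 when the threshold was 5 CPM (275 members) and 28 to 99 without 1 library. For the mean of the 4 effects it was 27 with total counts (8250 of 45762 of all sequences) and 30 with no filter (11825 of 172262). For the difference between feedings it was 14 with DESeq2 (3786 of 45762 of all sequences) and 1 with total counts (748 of 45762). It was 12 with no filter (2877 of 172262), 3 with the replicate block (1814 of 45762) and 2 to 18 without 1 library. In controls over feedings it was 20 with DESeq2 (3920 of 45762 of all sequences) and 5 with its size factors (566 of 45762). It was 20 with no filter (2850 of 172262), 18 with names with s alone (3228 of 45578) and 0 to 33 without 1 library. With total counts JX010510.1 turned to 0.55 on the log2 scale at 11 feedings. The cause was not tested in any of these cases. Beyond the values given above, the block changed no call of a named member.

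No member had fewer than 4 counts in any library, which follows in part from the choice by level. Some counts were still low, such as 25 and 27 for JQ425156.1 in controls s2 and s3 at 11 feedings. Groups of 3 or 4 libraries and the counting of reads on several sequences also limit the comparisons.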
